A study of Mus musculus with 2 samples.

Results

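The regions described here are 857 Sox6 peaks of mouse primary rib chondrocytes that stand in the first 5% of the deposited Sox6 list (places 1 to 3956) and overlap no peak of the Sox9 list by even 1 bp. They are 21.7% of those 3956 early rows (95% exact binomial interval 20.4 to 23.0), and the Sox6 list holds 79107 peaks in all. The other 3099 early rows overlap a Sox9 peak and serve as the comparison. The members were thus chosen by list place and by overlap with Sox9. Peaks that overlap a Sox9 peak are called shared, and the others unshared. Over the whole Sox6 list 76.9% of peaks are unshared, and in the next 5% of rows 36.7%. The low share among the early rows goes with list place, which chose the members, so it is not read as a trait of them. The 2 samples of the series are 1 ChIP with an antibody to Sox6 and 1 input DNA without antibody, both from untreated wild-type ICR mice at postnatal day 1. The dissection kept proliferative and prehypertrophic cartilage and left out the mature hypertrophic zone. The 23865 Sox9 peaks come from other samples of mouse rib chondrocytes that the authors analysed again, and for those animals no strain or age is given in the sources used here. The lists give positions only, with no score or read count, and the depth is unknown. With 1 list for each factor and no replicates, intervals cover counting error over peaks alone, and no difference below carries a replicate error or a test.

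SOX9 is the HMG-box transcription factor required for cartilage to form, and it switches on genes of the cartilage matrix. SOX6, of the SOXD group, also carries an HMG box but lacks a transactivation domain of its own, and with its relative SOX5 it is known to strengthen the action of SOX9 in chondrocytes. Sites where a factor of this pair is called without the other are therefore of interest in this tissue. Rank was taken from the order of the rows, which is not documented. Regions are given in mm9 coordinates, counted from 1. Genes near them and their sequences were not analysed here, and the chondrocyte label could not be checked against marker genes with peak positions alone.

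The unshared early peaks were divided by their distance to Sox9, at chosen limits of 1000 bp and 12.5 kb. A group of 340 had the edge of a Sox9 peak within 1000 bp without overlapping it, which is 39.7% of the 857 (36.4 to 43.0). Another 335, or 39.1% (35.8 to 42.4), had no Sox9 edge within 12.5 kb, and the remaining 182 lay between these limits. Overlap chose the members, so these distances are a description. For comparison, a Sox9 edge within 1000 bp was found for 12% of unshared peaks over the whole Sox6 list, and none within 12.5 kb for 55.1%. The next 5% of the list lay between these values, with 334 of 1451 unshared peaks (23.0%, 20.9 to 25.3) within 1000 bp. Beside the early peaks that do overlap Sox9, a further Sox9 peak within 1000 bp that was not itself overlapped was found for 602 of 3099 (19.4%, 18.05 to 20.9). The last value counts a Sox9 peak in addition to the overlapped one, whereas for unshared peaks the nearest one counts, so the difference between these is partly set by the choice of groups.

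**Figure D1:**
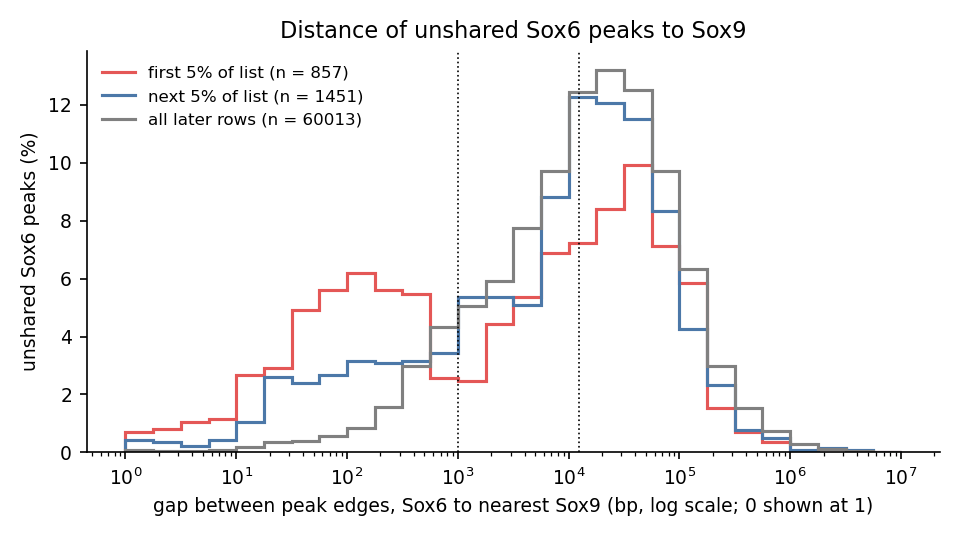
Share of unshared Sox6 peaks (y axis, percent) by the gap in bp between their edge and the nearest Sox9 edge (x axis, log scale), for the first 5% of the list, the next 5% and all later rows. Dotted lines mark 1000 bp and 12.5 kb. The 857 early peaks form a hump below 1000 bp and another above 12.5 kb, and the hump of close peaks is much lower in the 60013 later ones.

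In the close group the gaps were of the order of a peak's width. The median gap was 100.5 bp (quartiles 34 and 245), and the median width of these Sox6 peaks was 126 bp. Of the 857 unshared early peaks 115 (13.4%, 11.2 to 15.9) were within 50 bp of a Sox9 edge, and 4 of them touched it with no base between. In the next 5% of the list 6.96% of unshared peaks were within 50 bp, and in all later rows 1.19%. Measured between centres, 167 unshared early peaks (19.5%) lay within 250 bp of a Sox9 centre. The same held for 10.1% of unshared peaks in the next 5% of the list and for 1.61% in all later rows. A centre distance within 250 bp is also reached by overlapping pairs. Between 150 and 200 bp of centre distance the early list held 76 shared and 75 unshared peaks, and between 200 and 250 bp it held 19 and 41. Whether a pair at such a distance counts as shared therefore turns on the widths of its peaks.

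**Figure D2:**
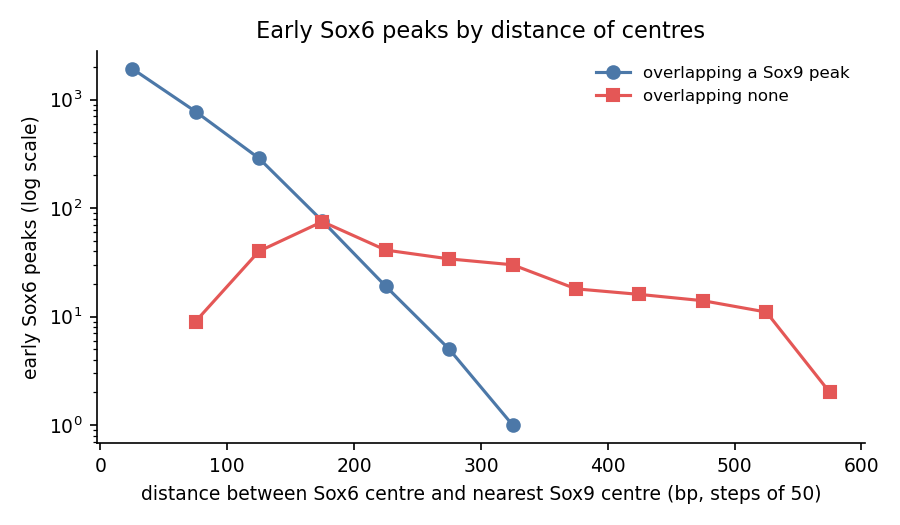
Number of early Sox6 peaks (y axis, log scale) by the distance in bp from their centre to the nearest Sox9 centre, in steps of 50 bp (x axis), for peaks that overlap a Sox9 peak and peaks that overlap none. The lines cross between 150 and 200 bp, with 76 and 75 peaks. Steps with no peak are not drawn.

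The Sox9 peaks next to the close group were mostly free of Sox6. Of the 340 close peaks, 323 had as their nearest Sox9 peak one that no Sox6 peak overlapped, and 17 (5.0%, 2.94 to 7.88) had one that another Sox6 peak did overlap. Over the whole Sox9 list 76.7% of peaks overlap a Sox6 peak. That list was not selected, whereas close peaks were chosen for not overlapping the Sox9 peak beside them. The low share beside the close group thus follows in part from the rule. A closer comparison is with Sox9 peaks that also lie within 1000 bp of an early Sox6 peak without overlapping it. Of the 395 such Sox9 peaks beside unshared early peaks, 6.58% (4.34 to 9.50) overlapped some Sox6 peak, against 23.2% (20.0 to 26.6) of the 665 beside shared early peaks. These sets were not matched for their gaps to the Sox6 peak, so this difference too can follow in part from the grouping. The Sox9 peaks nearest to the close group had a median width of 157.5 bp (quartiles 108 and 212), against 184 bp (146 and 230) for the nearest Sox9 peaks of shared early peaks. A narrow Sox9 peak is less likely to overlap, so this follows in part from the rule. The nearest Sox9 peaks of the 182 and of the 335 more distant members also had medians of 184 bp. The median place of the Sox9 peaks by the close group was at 35.8% of the Sox9 list, against 17.6% for shared early peaks and 55.3% for unshared ones over 12.5 kb away. For 50 of the 340 close peaks (14.7%, 11.1 to 18.9) the nearest Sox9 peak was in the first 5% of its list, against 21.9% of shared early peaks and 4.60% of all Sox6 rows.

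The first members of the list show this closeness. Of the first 10 unshared peaks, 8 had a Sox9 edge within 1000 bp. The first lay on chromosome 13 from 91600344 to 91600479, at place 7 of the Sox6 list, and was 225 bp from a Sox9 peak at place 12557 of the other list. The second, on chromosome 5 from 118909008 to 118909146 at place 10, was 21 bp from a Sox9 peak from 118909168 to 118909294 at place 507. The peak at place 20, on chromosome 1 from 184186402 to 184186547, was 4 bp from a Sox9 peak at place 591. At place 49, on chromosome 6 from 108618440 to 108618586, the gap was 32 bp to a Sox9 peak at place 232. These last pairs are thus early in both lists and yet count as unshared. Also within 1000 bp of Sox9 were those at places 23 (chromosome 2, 30513848 to 30513985), 37 (chromosome 19, 4213788 to 4213903), 43 (chromosome 8, 108816512 to 108816656) and 68 (chromosome 9, 77598580 to 77598691), with gaps of 60, 117, 318 and 160 bp. Their nearest Sox9 peaks stood later, at places 23448, 6250, 2861 and 16828, outside the first 5% of the Sox9 list. In all 8 cases the nearest Sox9 peak overlapped no other Sox6 peak, as in most of the close group, and the rule sets this in part. The first 5 shared peaks, at places 1 to 5, had Sox9 centres 13 to 112.5 bp away, whereas centres were 154 to 454 bp apart in the 8 pairs just named. Overlap chose both sets, so closer centres in shared pairs follow from the rule and are not a result.

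The other 2 of the first 10 were remote from Sox9. On chromosome 5 from 92512722 to 92512832, the Sox6 peak at place 17 had its nearest Sox9 edge 95624 bp away. On the same chromosome from 120366607 to 120366739, the peak at place 57 was 49402 bp from Sox9. Neither had another Sox6 peak within 12.5 kb. The next remote peaks in the list, named after their values had been seen, stood at places 142, 157 and 165. The one at place 142 (chromosome 5, 31879021 to 31879123) was 12735 bp from Sox9. The gap was 185433 bp at place 157 (chromosome X, 101176539 to 101176660) and 32452 bp at place 165 (chromosome 16, 91485263 to 91485375). Remote peaks also occurred among the top rows, then, but they were rarer there.

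Peaks farther than 1000 bp from Sox9 became more frequent along the early rows, whereas close unshared peaks showed no steady trend. In the first 989 rows 65 peaks, or 6.57% of the rows, had no Sox9 edge within 1000 bp, and in the last 989 early rows (places 2968 to 3956) 192, or 19.4%. Close unshared peaks numbered 92, 70, 83 and 95 in the 4 successive sets of 989 rows, which is 7.08 to 9.61% of the rows. Peaks over 12.5 kb from Sox9 numbered 40, 81, 94 and 120. Among the 46 unshared peaks of the first 250 rows, 33 (71.7%, 56.5 to 84.0) were close and 9 were over 12.5 kb away. Over all 20 steps of 5% of the Sox6 list, unshared peaks with a Sox9 edge within 1000 bp numbered 297 to 454 per step, with 340 in the first. The number with an edge within 200 bp was highest in the first step, at 235, and its median over the 20 steps was 68.5. The fall of sharing with list place was thus carried by peaks farther than 1000 bp from Sox9, which went from 517 in the first step to 3353 in the last. List place chose the members, so these numbers too are a description.

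**Figure D3:**
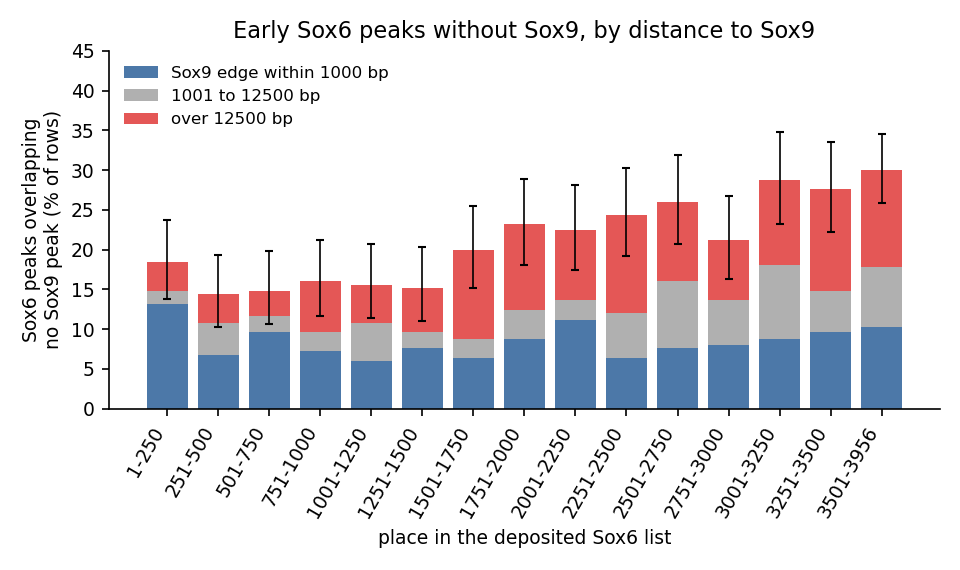
Share of early Sox6 peaks that overlap no Sox9 peak (y axis, percent of the rows in each step), by place in the deposited list (x axis, steps of 250 rows, with 456 rows in the last), divided by the gap to the nearest Sox9 edge. Black bars are 95% exact binomial intervals of the whole share. The share within 1000 bp has no steady rise, and the share over 12.5 kb rises from 3.6% to 12.3% of the rows.

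Values on both sides of place 3956, the bound of the selection, were as follows. The last 3 unshared peaks inside it, at places 3948, 3954 and 3955, were 125, 423 and 144 bp wide with gaps of 571, 30118 and 5037 bp to Sox9. The first 3 outside, at places 3957, 3958 and 3961, were 132, 135 and 241 bp wide with gaps of 368, 60721 and 104737 bp. In the next 5% of rows 36.7% of peaks were unshared (35.2 to 38.2).

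Unshared early peaks were somewhat narrower than shared ones. Their widths ran from 8 to 477 bp with a median of 132 bp (interval of the median 129 to 135, quartiles 113 and 158). Shared early peaks ran from 10 to 556 bp with a median of 144 bp (142 to 145, quartiles 122 and 172). The distributions overlapped widely and their medians were 12 bp apart. In the same 4 sets of 989 rows the medians were 133, 132, 133 and 132 bp for unshared and 145, 145, 141 and 144 bp for shared peaks. In finer steps the unshared median was the lower in 14 of 15, with the reverse at places 751 to 1000 (141 against 135 bp) and nearly equal values at places 2001 to 2250 (139.5 against 140 bp). The difference was not particular to the early rows. Over the 20 steps of 5% of the Sox6 list the unshared median was the lower in 19. In the next 5% it was 136 against 144 bp. The remote group, over 12.5 kb from Sox9, had a median of 134 bp (130 to 138). Close peaks had the lowest median, 126 bp (123 to 132). Peaks under 100 bp made up 14.6% of the unshared early peaks (12.3 to 17.1) and 8.16% of the shared ones (7.22 to 9.18). Over all Sox6 rows the share was 15.7%, so by this cut the shared early peaks lay farther from the list. By other measures the unshared early peaks did. The median width over all Sox6 rows was 151 bp (150 to 151), above both early groups. Widths over 200 bp made up 24.7% of all Sox6 rows, 12.7% of shared and 10.7% of unshared early peaks. The 8 members under 50 bp, 0.93% of the unshared early peaks, were all in the close group. Such widths made up 0.55% of shared early peaks and 2.74% of all Sox6 rows. A narrow peak has few bases that can meet a Sox9 peak, so their place beside Sox9 follows in part from the rule. The narrowest member, 8 bp on chromosome 7 from 117252943 to 117252950, was 11 bp from a Sox9 peak of 168 bp at place 932.

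Read the other way, the chance of being unshared fell with the width of the Sox6 peak. Of the 134 early peaks of up to 80 bp 36.6% were unshared (28.4 to 45.3), and of the 755 from 161 to 200 bp 14.8% (12.4 to 17.6). Above 200 bp the share was 18.9% (15.5 to 22.7). A wider peak has more bases that can meet a Sox9 peak, so part of this follows from the definition of overlap. Counting only peaks with no Sox9 edge within 1000 bp, the same width classes gave 16.4%, 10.1% and 12.7%, a smaller fall with intervals that overlap in part.

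**Figure D4:**
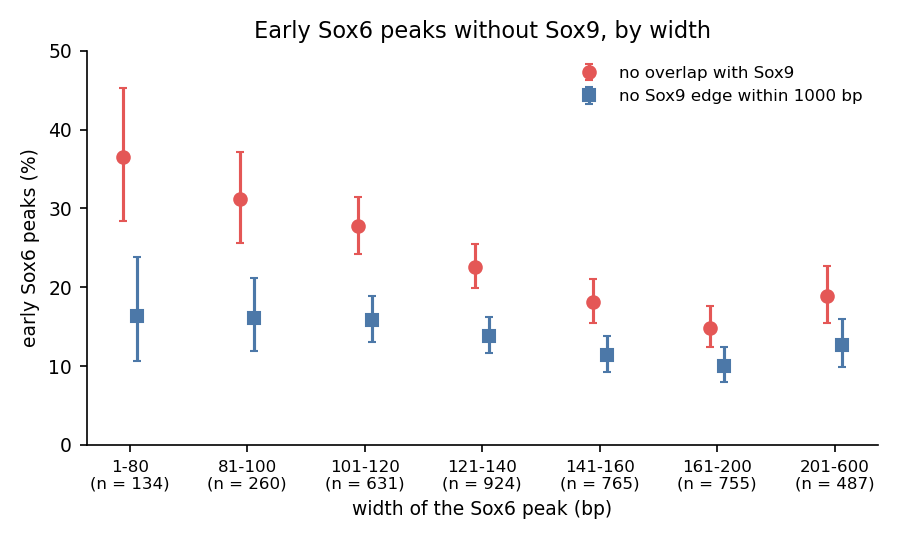
Share of early Sox6 peaks (y axis, percent, with 95% exact binomial intervals) that overlap no Sox9 peak (circles) or have no Sox9 edge within 1000 bp (squares), by width of the Sox6 peak in bp (x axis, with the number of peaks). The circles fall from 36.6% to 14.8% and the squares from 16.4% to 10.1% before both rise in the widest class.

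The widest unshared peaks were not all remote from Sox9. The widest, 477 bp on chromosome 7 from 65881876 to 65882352 at place 3583, was 226 bp from a Sox9 peak. The second, 456 bp on chromosome 8 from 26551020 to 26551475, was 122 bp from the Sox9 peak at place 760. On chromosome 7 from 150194634 to 150195064 a peak of 431 bp had a gap of 557 bp. The other 2 of the 5 widest were remote. One of 449 bp on chromosome 7 (75096233 to 75096681) had a gap of 26787 bp, and one of 423 bp on chromosome 11 (80762640 to 80763062) had a gap of 30118 bp.

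Most unshared early peaks stood near other Sox6 peaks, nearly as often as shared ones. Another Sox6 centre lay within 12.5 kb of 713 of the 857 (83.2%, 80.5 to 85.6), and of 86.9% of shared early peaks (85.7 to 88.1). Over all Sox6 peaks the share was 79.8%. Within 1000 bp a neighbour was found for 24.0% of unshared (21.2 to 27.0) and 23.2% of shared peaks (21.7 to 24.7), and these intervals overlap. Over all Sox6 rows it was 33.3%, so that both early groups lay below the list at this distance and above it at 12.5 kb. The nearest other Sox6 centre was a median of 2153.5 bp from unshared and 2287 bp from shared early peaks. The close group had neighbours within 12.5 kb in 87.1% of cases (83.0 to 90.4), about as shared peaks did. The remote group had them in 70.4% (65.2 to 75.3), and 9 of its 335 peaks (2.69%, 1.24 to 5.04) had another early Sox6 peak in that range, against 20.0% of shared early peaks (18.6 to 21.5) and 14.0% of all Sox6 rows. The limit of 12.5 kb removes neighbours that overlap Sox9 from around the remote group, so these lower values follow in part from its definition. Another early Sox6 peak lay within 12.5 kb of 25% of close peaks (20.5 to 30.0) and of 29.1% (22.6 to 36.3) of the 182 peaks between the limits, of which 99.5% had some Sox6 neighbour. A Sox9 edge within 12.5 kb defines these 182, and 88.5% of them had a shared Sox6 peak in that range. Their high share of neighbours thus also follows in part from the definition.

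Unshared early peaks seldom lay next to each other. Joining members whose centres were within 12.5 kb left 816 on their own, 19 pairs and 1 run of 3. The members are only 857 of 79107 Sox6 peaks, so few such pairs are not read as a trait of them. The same joining was not run for other sets. An early Sox6 peak of either kind lay within 12.5 kb of 17.2% of unshared early peaks (14.7 to 19.8). For shared early peaks this share was 20.0%, and for all Sox6 rows 14.0%. The run of 3 was on chromosome 17 from 26641425 to 26645585, with members at places 836, 1867 and 2894, no shared Sox6 peak and 1 Sox9 peak inside it, and gaps to Sox9 of 192 to 3458 bp. The first pairs by list place differed in their surroundings. On chromosome 11 from 98637217 to 98644864 the members at places 102 and 2161 had Sox9 edges 12 and 202 bp away. On chromosome 5 from 31873521 to 31879123, the members at places 142 and 2402 had gaps of 7235 to 12735 bp. On chromosome 1 from 197067743 to 197068018 the members at places 217 and 230 had centres 80 bp apart and were about 110 kb from Sox9. On chromosome 12 from 86818043 to 86819257 the members at places 257 and 3672 had gaps of 24 to 807 bp.

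Some members lay far from any Sox9 peak, and the 5 farthest, chosen by that gap, are named here. Of the 857, 73 (8.52%, 6.74 to 10.6) were over 100 kb from Sox9, compared with 8.13% (6.78 to 9.66) of unshared peaks in the next 5% of rows and 12.1% of all later unshared peaks. The farthest, a peak of 77 bp on chromosome X from 151650979 to 151651055 at place 2558, was 2238615 bp from Sox9 but had 2 other Sox6 peaks within 12.5 kb. A peak of 80 bp on chromosome 1 from 68133235 to 68133314 at place 1835 was 973029 bp away, and its nearest other Sox6 centre was 36283 bp off. Neighbouring members on chromosome 9, from 82867800 to 82867889 and from 82869073 to 82869417 at places 3651 and 1064, were 859845 and 858317 bp from Sox9. The fifth, on chromosome 3 from 133696918 to 133697066 at place 1245, was 406464 bp from Sox9 with no other Sox6 centre nearer than 111456 bp.

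Unshared early peaks were spread over the autosomes with similar shares, and their share was higher on chromosome X. Between 15.3% (chromosome 9, 10.7 to 21.1) and 26.4% (chromosome 19, 18.9 to 35.0) of the early rows of an autosome were unshared, against 21.5% for all autosomes together (20.2 to 22.8). That joint value lay within the interval of 18 of the 19 autosomes, and chromosome 9 was the exception. On chromosome X 14 of 30 early peaks were unshared, or 46.7% (28.3 to 65.7), and 9 of the 14 were over 12.5 kb from Sox9. Over the whole list 86.6% of Sox6 peaks on X are unshared and 76.8% of those on autosomes. A run of 23 Sox6 peaks near the end of X, from 166412440 to 166446723, held 4 of its early peaks, 2 of them unshared, and without it 12 of 26 were unshared (46.2%, 26.6 to 66.6). Peaks of 1 list are not independent replicates, and few of the early ones lie on X. How copy number or mappability bear on this was not tested.

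**Figure D5:**
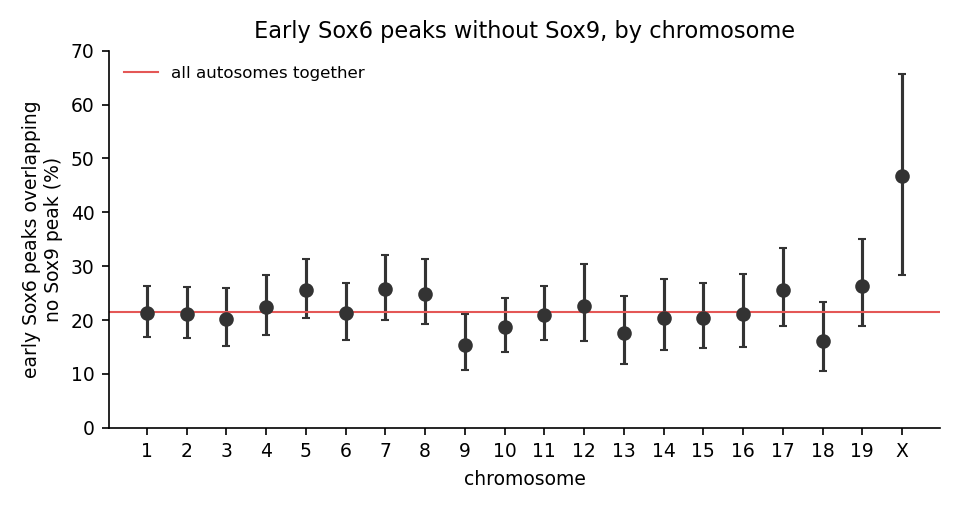
Share of early Sox6 peaks that overlap no Sox9 peak (y axis, percent, with 95% exact binomial intervals) by chromosome (x axis). The red line is the value for all autosomes together, 21.5%. Chromosome X stands at 46.7% with a wide interval, from 30 peaks.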

How the data were processed

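The deposited Sox6 and Sox9 lists hold only positions, 3 headerless columns with the chromosome, start and end for each peak the authors called. Starts were read as counted from 0 and are printed counted from 1. Per the submitters' processing notes, the tool was Bowtie (no version stated) and the genome build was mm9. The peak caller and a separate build for the Sox9 list were not given in the sources used here. Both deposited names include "FDR1", which points to a false discovery rate threshold that no source explains. Per the series' design text, peaks of both factors were called alike. A gap is the number of bases between peak edges. Overlaps, gaps and centre distances were computed in Python 3.11.15 with numpy 2.4.6 and pandas 2.3.3, and exact binomial (Clopper-Pearson, 95%) intervals with scipy 1.17.1. The interval of a median comes from order statistics. The functions were tested on simulated lists with known gaps. Limits of 1000 bp and 12.5 kb divide the members. The members and limits were chosen with earlier results of these data known. Named regions are the first 10 unshared and first 5 shared peaks, 3 on each side of the last place, the 5 widest, the 5 farthest from Sox9 and the 5 largest runs, the latter ordered by list place where equal. Other named regions were chosen after their values were seen. No mm9 genome or annotation was used, so the planned gene, promoter and motif analyses were not run and no sequence is shown.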

Additional observations from a re-analysis of the deposited data

How the results depend on the processing

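The share of unshared early peaks, 21.7%, depended on the definitions. It was 48.6% (1922 peaks) when the overlap had to cover 50% of both peaks, 13.1% (517) with a gap of up to 1000 bp counted as shared, 17.2% in the first 2.5% of rows, 29.2% in the first 10% and 36.8% with the first 50% of Sox9 rows only. On autosomes alone it was 21.5%. Unshared peaks were narrower under all 8 alternatives run, by 7 to 15 bp. The share with a Sox6 neighbour was lower for unshared than for shared peaks under all 10 alternatives run, but at 5 kb the interval of the unshared share (65.0 to 71.4) held the shared value of 69.4%. The difference was -3.73 percentage points within 12.5 kb, -1.15 within 5 kb, -2.24 within 25 kb and -16.5 for unshared peaks over 12.5 kb from Sox9. At 1000 bp, a distance outside these alternatives, the unshared share was slightly the higher (24.0% against 23.2%). The alternatives that follow, the one restricted to peaks over 12.5 kb from Sox9 and those that left out peaks under 50 bp or the run on X were chosen after seeing the data. The share of unshared peaks beside Sox9, 39.7%, was 47.6% in the first 2.5% of rows, 29.2% in the first 10%, 17.99% with the first 50% of Sox9 rows, 35.7% for edges within 500 bp and 43.4% within 2000 bp. The cause of these shifts was not tested, apart from the wider or narrower limits themselves. Alternatives for promoters, motifs and base composition were not run. No paired analysis was possible because there is 1 list per factor. Without read counts, depth cannot be set against any of these values.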
